A study of Caenorhabditis elegans with 12 samples.

Results

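Poly-A RNA of whole L4 larvae of *Caenorhabditis elegans* was sequenced to ask what an altered CRTC-1, the CREB-regulated transcriptional coactivator, changes in animals that keep their own AMPK. The comparison set the CA-CRTC-1 strain (WBM55), whose CRTC-1 carries the changes S76A and S179A, against the wild type N2, with 3 libraries each. Genes were kept when their mean over these 6 of the 12 libraries of the series reached 5 CPM (read counts scaled for library size by the authors), which left 10509 of 14505 genes. A further 3996 genes lay below that level; the lowest gene kept averaged 5.005 CPM, and 469 genes lay between 4 and 5 CPM. The series also holds the strain WBM60, labelled CA-AAK-2, with an active form of the AMPK catalytic subunit AAK-2, and the strain WBM66 with both altered proteins (CA-AAK-2;CA-CRTC-1, called the double strain), again with 3 libraries each. They were used here to ask whether a difference recurred in a second pair of strains. All animals were synchronised as larvae, fed OP50-1 bacteria and grown at 20 degrees, and the labels name no drug. The labels give neither the promoter nor the insertion site of the transgenes and give 1 strain for each genotype, so an effect of the altered CRTC-1 cannot be told apart from other differences between WBM55 and N2.

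CRTC proteins have no DNA-binding domain of their own. They join the bZIP factor CREB, encoded in the worm by crh-1, at target promoters. AMPK phosphorylates CRTC, which keeps it bound to 14-3-3 proteins in the cytoplasm, and the phosphatase calcineurin opposes this. Replacing the phosphorylated serines by alanine yields a coactivator that the kinase can no longer restrain in this way. In worms CRTC-1 is known as a target of AMPK in the control of lifespan and is expressed in neurons and intestine. The L4 stage is the last larval stage, in which the germ line switches from sperm to oocytes and the hypodermis, the outer epithelium, prepares the adult cuticle.

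crtc-1 itself rose in CA-CRTC-1. Its level was 19.8, 18.3 and 23.4 in N2 and 183, 177 and 207 in CA-CRTC-1, a difference of 3.18 ± 0.10 on the log2 scale (± SE, limma, adjusted p = 1.45e-10; levels below are in CPM for replicates 1, 2 and 3). The groups lay far apart, and the reads do not separate the transgene from the animal's own gene. The neighbouring genes gap-3 and Y20F4.4 differed by 0.09 and 0.10 and were not called. aak-2 stood at 61.7 ± 5.58 CPM in N2 and 63.7 ± 5.31 CPM in CA-CRTC-1 (mean ± SD, n = 3) and differed by 0.05 ± 0.08. crh-1 was 0.52 ± 0.11 above N2 and missed the fold threshold used here; leaving out CA-CRTC-1 replicate 2 (0.60) or replicate 3 of N2 (0.61) brought it past. Among the 35 tested genes of the AMPK, CRTC-1 and CREB pathway, 3 rose and 0 fell, against 6.62% and 2.17% of all genes tested. Beside crtc-1 these were cmk-1, a calcium/calmodulin-dependent kinase (0.76 ± 0.14), and aakg-1, which encodes a regulatory gamma subunit of AMPK (0.59 ± 0.09). The call of aakg-1 was lost when CA-CRTC-1 replicate 1 (0.56) or N2 replicate 2 (0.50) was left out, with edgeR (0.51), after median-ratio scaling (0.51) or scaling to equal totals (0.58), and with a pseudocount of 2 (0.56); without CA-CRTC-1 replicate 2 the list had 5 calls.

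Most called genes rose. Calls needed a difference of at least 1.5-fold and, in limma, an adjusted p (Benjamini-Hochberg) no higher than 0.01. By this rule 924 genes (8.79%) were called, 696 higher (6.62%) and 228 lower (2.17%) in CA-CRTC-1. The called rises had a median N2 level of 8.18 CPM and reached a median of 22.98 CPM, whereas the median gene tested lay at 26.2 CPM in N2. The called falls went from a median of 42.8 to 22.6 CPM. The level filter uses the mean over both strains, so a gene near 0 in N2 entered only through its level in CA-CRTC-1. The median difference was 1.07 among the rises, -0.78 among the falls and 0.07 over all genes tested. Beyond 4-fold lay 142 rises and 1 fall, that of praf-3. Rescaling the libraries by their median ratio moved the median of all genes by -0.08 and gave 593 rises and 322 falls, so the share of calls that were higher went from 75.3% to 64.8%; edgeR on the recovered reads gave 584 and 354, or 62.3%. In all 924 genes the 3 values of one strain did not overlap those of the other, as was so for 49.2% of all genes tested. The same direction was called by limma and edgeR for 812 genes. In whole animals, fewer cells of a type and less RNA per cell cannot be told apart.

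**Figure D1:**
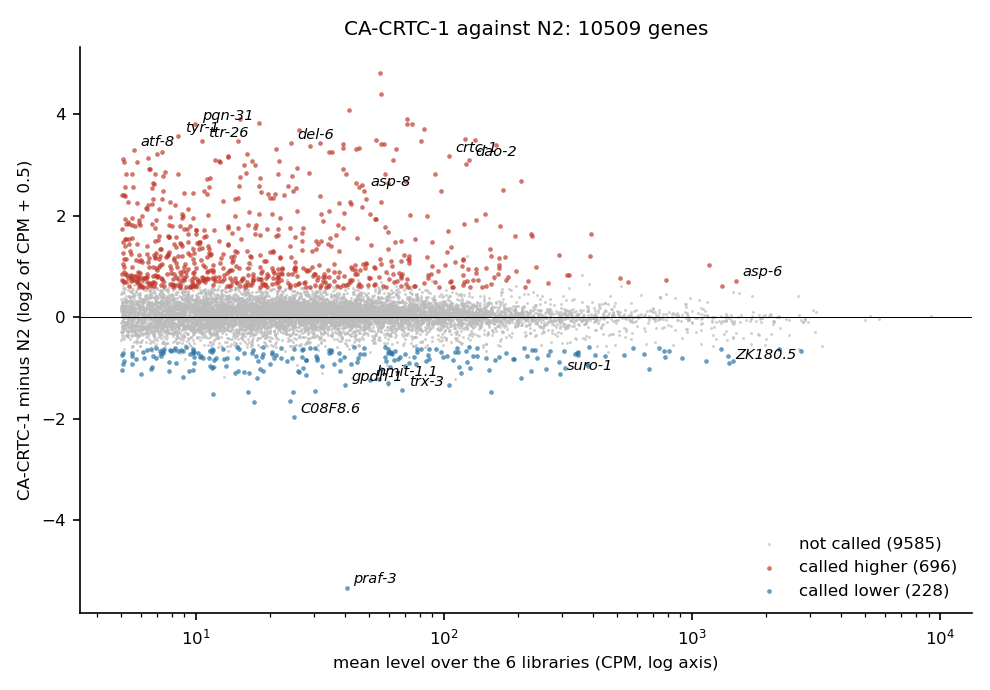
Each point is 1 of the 10509 genes tested, at its mean level over the 6 libraries (CPM, log axis) and its difference CA-CRTC-1 minus N2 (log2 of CPM + 0.5). Among the 696 called rises 142 exceed 4-fold, whereas praf-3 alone does so among the 228 called falls.

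The genes of collagens, cuticle matrix and moulting, defence and oogenesis held 151 of the 924 calls. Of 386 genes tested in these 4 lists, 112 (29.02%) rose and 39 (10.1%) fell, larger shares than over all genes tested, which left 584 rises and 189 falls, 773 of the 924 calls, outside them. The rest of the text describes mostly these other genes. Lists overlap, and lpr-3, lpr-5, lpr-6 and mlt-11 below also belong to the 4 lists. Genes of the cuticle or the moults also remain outside them, such as let-4 and mltn-1, so the 773 calls are not free of that group. Each list count below stands against 6.62% of all genes tested called higher and 2.17% called lower. The per-library plot gives 12 genes in all 12 libraries.

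Several of the largest rises recurred in full when CA-AAK-2 was present as well. pqn-31, of the glutamine- and asparagine-rich prion-like family, was at 0.742, 0.838 and 1.14 in N2 and 18.02, 19.1 and 20.1 in CA-CRTC-1. del-6, of the DEG/ENaC sodium channel family, was at 3.05, 3.92 and 4.21 in N2 and 45.2, 41.5 and 47.7 in CA-CRTC-1. In both cases the lowest CA-CRTC-1 library lay many times above the highest N2 library. The difference was 3.81 ± 0.15 for pqn-31 (limma, adjusted p = 4.90e-10) and 3.43 ± 0.19 for del-6 (3.30e-08). In the double strain against CA-AAK-2, a contrast that uses 6 other libraries, they differed by 3.44 ± 0.15 and 2.82 ± 0.19. The same held for pqn-94 (3.08 ± 0.22, then 3.33 ± 0.22), the CAP-domain gene vap-2 (3.14 ± 0.31, then 2.94 ± 0.31), the astacin metalloprotease gene nas-9 (2.83 ± 0.19, then 3.25 ± 0.19), and epic-2 (3.31 ± 0.34, then 3.32 ± 0.34).

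**Figure D2:**
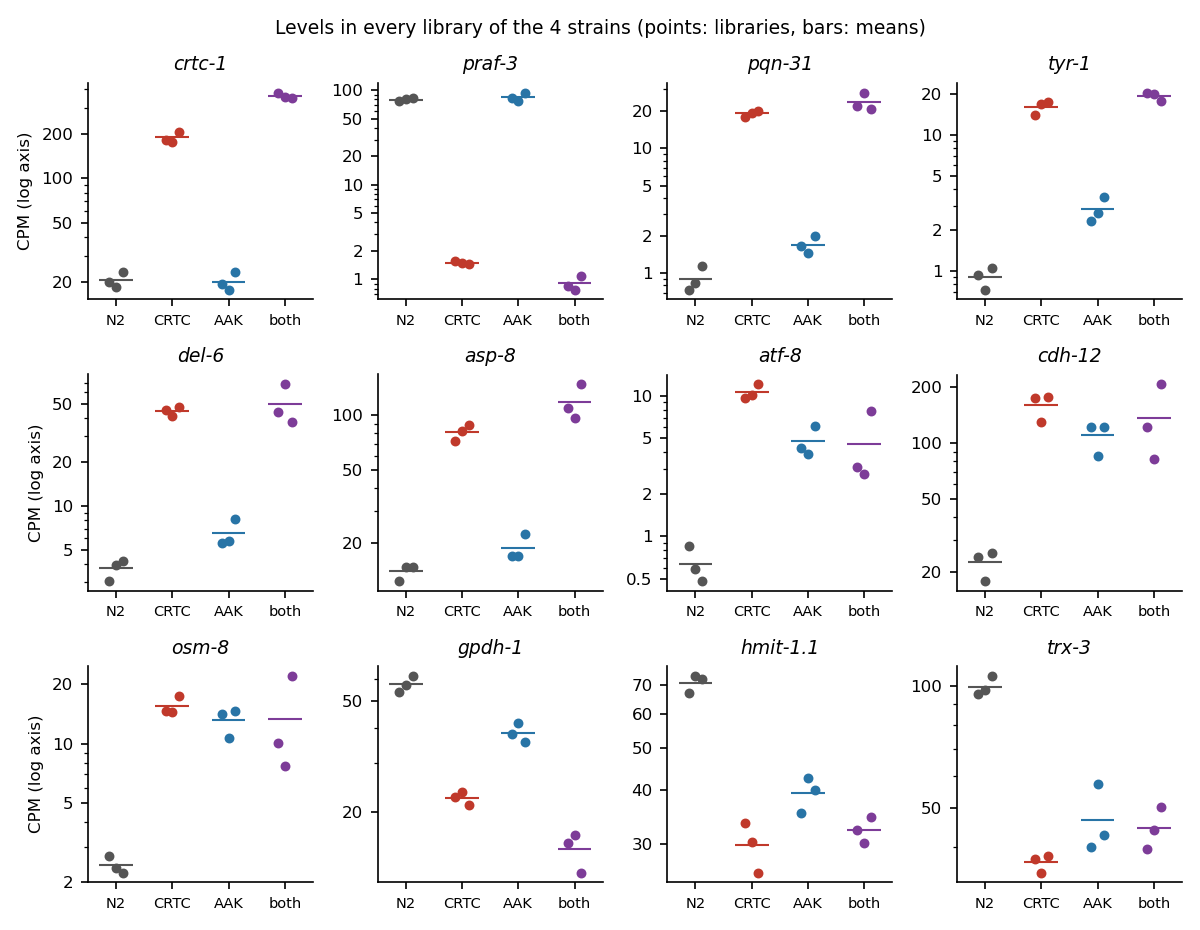
Level of 12 genes (CPM, log axis, each panel with its own range) in N2, CA-CRTC-1 (CRTC), CA-AAK-2 (AAK) and the double strain (both); points are libraries and bars are means of 3. pqn-31 and del-6 are high in both strains with CA-CRTC-1, whereas atf-8, cdh-12 and osm-8 are high in all 3 transgenic strains.

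Tyrosinase and transthyretin-related genes rose as well, several of them by another amount over CA-AAK-2. Of 4 tyrosinase genes tested (copper oxidases of melanin and cuticle chemistry), 3 rose and 0 fell: tyr-1 (3.56 ± 0.15), tyr-4 (1.499 ± 0.12) and tyr-2 (1.02 ± 0.16). tyr-1 was at 0.942, 0.731 and 1.05 in N2 and 14.02, 16.8 and 17.6 in CA-CRTC-1. tyr-2 was far more abundant and moved less, from 110.2 CPM to 224 CPM. Of 34 transthyretin-related genes, which encode small secreted proteins, 10 rose and 0 fell, among them ttr-26 (3.47 ± 0.13), ttr-59 (2.72 ± 0.20) and ttr-8 (2.13 ± 0.18). The median difference of all 34 was -0.04. Median-ratio scaling and edgeR each gave 10 rises and 1 fall among the 34. All 3 tyrosinases and these 3 transthyretin-related genes were also called higher in the double strain over CA-AAK-2. There the difference was 2.59 ± 0.15 for tyr-1 and 2.02 ± 0.13 for ttr-26, smaller than against N2. It was 2.35 ± 0.12 for tyr-4 and 2.05 ± 0.16 for tyr-2, larger than against N2. These 4 interactions were called. For tyr-2, CA-AAK-2 lay below N2 at 56.6 CPM, and the double strain held 237 CPM, near CA-CRTC-1. For tyr-4, CA-AAK-2 held 34.3 CPM and N2 34.8 CPM, and the double strain (175.5 CPM) lay above CA-CRTC-1 (99.2 CPM).

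Digestive and extracellular proteases moved in part together. Of 53 gut proteases and peptidases tested, 10 rose and 0 fell (9 and 1 after median-ratio scaling or with edgeR). asp-8, an aspartyl protease gene, was at 12.4, 14.8 and 14.8 in N2 and 72.7, 82.6 and 88.2 in CA-CRTC-1 and rose by 2.49 ± 0.15. The cathepsin B-like genes cpr-4 (1.63 ± 0.14), cpr-5 (1.21 ± 0.11) and cpr-9 (0.74 ± 0.10) rose from high levels, with cpr-4 at 181.4, 199.5 and 189.7 in N2 and 653, 542 and 583 in CA-CRTC-1. asp-6, the most abundant called rise outside the 4 lists, went from 1144 CPM to 1881 CPM (0.72 ± 0.09). Every CA-CRTC-1 library of these genes lay above every N2 library. asp-8 and asp-6 were called higher over CA-AAK-2 too (2.61 ± 0.15 and 0.89 ± 0.09), whereas cpr-4, cpr-5 and cpr-9 were not (0.14 ± 0.14, 0.30 ± 0.11 and -0.04 ± 0.10) and their interactions were called.

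Metalloproteases of the extracellular matrix went both ways. Of 29 tested outside the moulting list, 6 rose and 7 fell. The matrix metalloprotease genes zmp-2 (3.06 ± 0.27) and zmp-3 (2.92 ± 0.25) and the astacin gene nas-9 rose. The matrix metalloprotease gene zmp-6 (-1.07 ± 0.12), the astacin gene nas-23 (-1.13 ± 0.11) and adt-1 (-0.89 ± 0.07), of the ADAMTS type, fell. Protease inhibitors counted 1 rise and 2 falls of 10. The rise was mlt-11 (3.39 ± 0.28), which was not called over CA-AAK-2 (0.64 ± 0.28), and bli-5 fell (-0.68 ± 0.12). cpi-1, of the cystatin type, fell (-0.78 ± 0.13) but was called higher in the double strain over CA-AAK-2 (1.02 ± 0.13). Acid phosphatases and sugar hydrolases counted 2 rises and 3 falls of 44, with pho-8 rising (2.34 ± 0.11) and pho-9 falling (-1.098 ± 0.14).

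A further group of rises was not called in the double strain against CA-AAK-2. atf-8, a bZIP transcription factor gene, was at 0.856, 0.589 and 0.481 in N2 and 9.68, 10.2 and 12.1 in CA-CRTC-1, a difference of 3.297 ± 0.28 (limma, adjusted p = 9.60e-07). In the double strain against CA-AAK-2 the difference was -0.16 ± 0.28, and the interaction was -3.45 ± 0.40. CA-AAK-2 animals already held 4.75 CPM of atf-8, between N2 and CA-CRTC-1. The cadherin genes cdh-7 (3.48 ± 0.29), cdh-10 (2.82 ± 0.26) and cdh-12 (2.81 ± 0.26) and the laminin alpha gene lam-3 (1.72 ± 0.18) shared this pattern; they are 4 of the 5 rises among 72 genes of basement membrane and adhesion, of which 1 fell. Over CA-AAK-2 the differences were 0.90 ± 0.29, 0.59 ± 0.26, 0.23 ± 0.26 and 0.44 ± 0.18. cdh-12 rose from 22.6 CPM to 161 CPM and stood at 110.1 CPM in CA-AAK-2. zmp-2, dao-2 (3.09 ± 0.21) and mltn-1 (3.095 ± 0.24), of the MLT-10-related family, also rose here and were not called over CA-AAK-2 (0.08 ± 0.27, 0.51 ± 0.21 and -0.43 ± 0.24). The double-strain libraries spread widely for the genes of this and the next paragraph other than phat-8, and replicate 3 held the highest value for each of them. Replicate 3 was also the highest double-strain library for cpr-4, cpr-5, osm-8, osr-1, atf-2, myrf-1, grh-1, lin-42 and E01G4.6. osm-8, for example, was at 10.1, 7.68 and 22.1 there.

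Of 90 CAP-domain and other secreted proteins tested, 20 rose and 2 fell against N2, and 23 rose and 9 fell over CA-AAK-2. The member with the smallest adjusted p was phat-8, of a family of pharyngeal gland genes (1.44 ± 0.10), which was also called higher over CA-AAK-2 (0.98 ± 0.10). Next came the lipocalin-related genes lpr-3 (3.71 ± 0.29), lpr-5 (3.41 ± 0.27) and lpr-6 (3.38 ± 0.26); lpr-3 is known for the transient matrix that precedes the cuticle, as is let-4 (2.84 ± 0.23), which encodes a leucine-rich repeat protein. lpr-3 was at 14.01, 8.31 and 12.4 in N2 and 148, 138 and 180.4 in CA-CRTC-1. Over CA-AAK-2 none of lpr-3, lpr-5, lpr-6 and let-4 was called (0.39 ± 0.29, 0.30 ± 0.27, 0.24 ± 0.26 and 0.68 ± 0.23).

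Over all called genes, 280 of the 696 rises (40.2%) were also called higher in the double strain against CA-AAK-2, where 6.97% of all genes tested were. For 19 the opposite direction was called and for 397 no call was made. Of the 228 falls, 60 (26.3%) were also called lower there, where 3.82% of all genes were. The interaction (double strain minus CA-AAK-2, less CA-CRTC-1 minus N2) was called for 394 of the 924 genes against 8.63% of all genes tested. It made the difference smaller or opposite for 263 rises and 88 falls and larger for 37 rises and 6 falls. The genes were chosen by one of the differences that the interaction compares, which by itself favours a smaller second difference. The rises called in both and with no called interaction numbered 230. crtc-1 itself was at 20.0 CPM in CA-AAK-2 and 362 CPM in the double strain, above the 189 CPM of CA-CRTC-1.

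**Figure D3:**
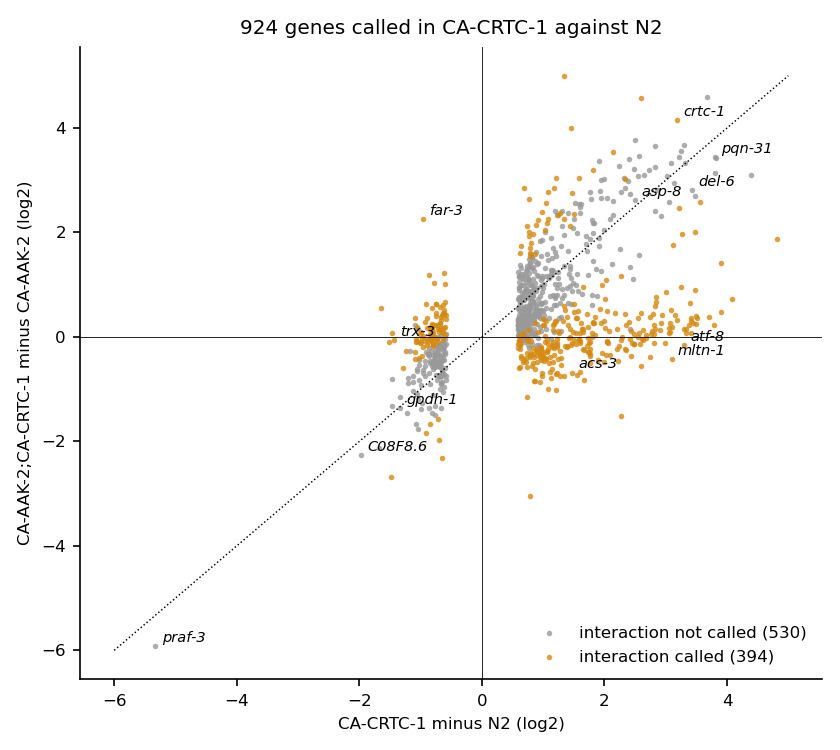
Each point is 1 of the 924 genes called in CA-CRTC-1 against N2, at that difference (horizontal, log2) and at the difference double strain minus CA-AAK-2 (vertical, log2); the dotted line marks equal differences. The rises fall into a band along that line, with pqn-31, and a band near 0 on the vertical axis, with atf-8.

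For a few called genes the differences in the 2 pairs of strains had opposite signs. cysl-2, a cysteine synthase-like gene of the hypoxia and hydrogen sulphide response, rose against N2 (1.07 ± 0.13) and fell in the double strain against CA-AAK-2 (-0.99 ± 0.13). acs-3, an acyl-CoA synthetase gene, did the same (1.48 ± 0.12, then -0.68 ± 0.12), as did the nuclear hormone receptor gene nhr-234 (1.22 ± 0.17, then -0.68 ± 0.17). far-3, of the fatty acid and retinol binding family, fell (-0.97 ± 0.17) and then rose (2.26 ± 0.17). phy-2, a prolyl 4-hydroxylase gene that modifies collagen, rose (0.87 ± 0.15) and then fell (-0.84 ± 0.15). All 5 interactions were called. For acs-3 CA-AAK-2 held 23.8 CPM and N2 5.21 CPM, while the double strain (14.8 CPM) lay near CA-CRTC-1 (15.3 CPM). For cysl-2 CA-AAK-2 (16.5 CPM) lay near CA-CRTC-1 (17.2 CPM), and the double strain (8.09 CPM) near N2 (7.87 CPM). far-3 was at 15.2 CPM in N2 and 5.64 CPM in CA-AAK-2. The 2 differences of these genes thus started from unlike levels. N2 and CA-AAK-2 lay closer for nhr-234 (3.88 and 3.95 CPM) and phy-2 (95.8 and 107.4 CPM).

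Genes of the osmotic response moved in both directions. Of 22 tested genes of the osmotic and hypoxic response, 4 rose and 4 fell. gpdh-1, a glycerol 3-phosphate dehydrogenase that makes the osmolyte glycerol, was at 53.8, 57.1 and 61.5 in N2 and 22.6, 23.5 and 21.2 in CA-CRTC-1 and fell by 1.33 ± 0.11 on the log2 scale (limma, adjusted p = 5.29e-07). hmit-1.1, a proton-coupled myo-inositol transporter gene, was at 66.9, 73.5 and 72.3 in N2 and 33.6, 30.4 and 25.8 in CA-CRTC-1 and fell by 1.24 ± 0.10. The CA-CRTC-1 libraries of both genes were below the N2 libraries without overlap. hmit-1.3 (-0.64 ± 0.07) and ptr-23, of the patched-related family (-0.82 ± 0.10), fell as well, and so did pgph-2, a phosphoglycolate phosphatase-like gene outside the list (-1.22 ± 0.10).

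The rises of that list were osm-8, osr-1, cysl-2 and phy-2, of which cysl-2 and phy-2 fell over CA-AAK-2. osm-8, a mucin-like gene, was at 2.71, 2.35 and 2.23 in N2 and 14.7, 14.5 and 17.5 in CA-CRTC-1 (2.45 ± 0.27). osr-1 rose by 2.29 ± 0.23. Beyond the list osm-11, a gene of a secreted Notch coligand, rose by 0.86 ± 0.10 from 117 CPM. Loss of osm-8, osr-1 or osm-11 is known to raise gpdh-1 in worms under ordinary salt. A link between these genes and the fall of gpdh-1 was not tested here. osm-7, a related coligand counted with osm-11 in the Notch list, fell (-0.98 ± 0.07). With CA-AAK-2 present, gpdh-1 (-1.36 ± 0.11) and pgph-2 (-1.45 ± 0.10) were again called lower, whereas osm-8 (-0.11 ± 0.27), osr-1 (0.01 ± 0.23), hmit-1.1 (-0.28 ± 0.10) and osm-7 (-0.02 ± 0.07) were not called. osm-8, phy-2 and ptr-23 lie outside the naming rule and were chosen after their values were seen.

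Several transcription factor genes rose. Of 39 tested bZIP, bHLH, forkhead, GATA and T-box factors, 6 rose and 0 fell (5 and 1 after median-ratio scaling or with edgeR). Their median difference was 0.20. Beside atf-8 the rises included the bZIP gene atf-2 (1.65 ± 0.18), the hypodermal GATA factor gene elt-3 (1.204 ± 0.11) and the forkhead gene fkh-7 (0.85 ± 0.12). elt-3 was at 8.903, 7.21 and 9.22 in N2 and 18.7, 20.3 and 21.1 in CA-CRTC-1. Of 21 heterochronic and moulting-clock regulators, 4 rose and 0 fell, among them myrf-1 (1.53 ± 0.19), a membrane-bound factor needed for moulting, grh-1 (1.297 ± 0.22), the Grainyhead factor of the moulting cycle, and lin-42 (1.12 ± 0.21), the period homologue that cycles with the moults. lin-42 was at 66.7, 74.3 and 84.3 in N2 and 164, 144 and 184 in CA-CRTC-1. These 3 genes and atf-2 were not called over CA-AAK-2 (0.07 ± 0.19, 0.11 ± 0.22, -0.03 ± 0.21 and 0.10 ± 0.18), whereas elt-3 and fkh-7 were (0.61 ± 0.11 and 0.91 ± 0.12). nhr-23, a receptor gene of the same cycle and a hypodermal marker, differed by 0.22 ± 0.10 (limma, adjusted p = 0.114). Nuclear hormone receptors counted 5 rises and 1 fall of 85, against 6.62% and 2.17% of all genes tested. They had 1 to 3 calls when N2 replicate 2, CA-CRTC-1 replicate 3 or N2 replicate 3 was left out. Median-ratio scaling and edgeR each gave 3.

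Some peptide signalling genes rose by small steps. Of 26 neuropeptide-like protein genes outside the defence list, 5 rose and 0 fell (3 calls without CA-CRTC-1 replicate 3, and 3 after median-ratio scaling or with edgeR), with a median difference of 0.42. nlp-16 (0.77 ± 0.11) and nlp-15 (0.77 ± 0.13) were among them. Of 15 genes of peptide processing and dense-core vesicles, 3 rose and 0 fell, with a median of 0.39: the proprotein convertase gene aex-5 (0.80 ± 0.10), the carboxypeptidase D gene cpd-1 (0.91 ± 0.13) and pamn-1 (0.67 ± 0.10), of the amidating monooxygenase type. cpd-1 was at 18.1, 16.2 and 17.4 in N2 and 32.3, 32.6 and 33.8 in CA-CRTC-1. The 7 listed neuronal markers, none of which was called, summed to 282 to 300.5 CPM in N2 and 330 to 367 CPM in CA-CRTC-1. The part of neuronal RNA in the peptide genes was not tested.

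Channels and transporters gave scattered calls. Of 111 ion channel genes tested, 7 rose and 2 fell, shares near the 6.62% and 2.17% of all genes tested. Beside del-6 the rises included the bestrophin gene best-14 (2.03 ± 0.12) and the ligand-gated channel gene lgc-22 (1.77 ± 0.15), while its relative lgc-21 fell (-0.998 ± 0.09). lgc-21 was at 174, 167 and 169.9 in N2 and 75.5, 91.9 and 88.8 in CA-CRTC-1. ABC transporters counted 4 rises and 0 falls of 49, with the P-glycoprotein gene pgp-10 highest (2.14 ± 0.13, then 2.598 ± 0.13 over CA-AAK-2). Solute carriers counted 4 rises and 3 falls of 119 (2 and 5 after median-ratio scaling or with edgeR), with the sodium/proton exchanger gene nhx-3 rising (1.25 ± 0.14) and the peptide transporter gene pept-3 falling (-0.80 ± 0.07). oat-1, of the organic anion transporter family, fell (-1.07 ± 0.13).

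Metabolic genes changed in few places. Over all genes tested 6.62% rose and 2.17% fell. Glycolysis, the TCA cycle and related paths counted 1 rise and 0 falls of 58 tested, and the rise was not called when replicate 3 of either strain was left out, nor after median-ratio scaling or with edgeR. Fatty acid synthesis counted 3 rises and 0 falls of 45 (1 and 1 with edgeR). Beta-oxidation counted 3 rises and 1 fall of 57, but 1 rise and 3 falls after median-ratio scaling and 1 and 4 with edgeR. The fall called on the deposited scale was cpt-5, of the carnitine palmitoyltransferase family (-1.07 ± 0.18, then -1.66 ± 0.18 over CA-AAK-2). Among 50 genes of lipases and lipid droplets 2 rose and 3 fell, with the lipase-like genes lips-3 (-0.72 ± 0.08) and lips-7 (-0.78 ± 0.09) lower and lips-10 (0.97 ± 0.14) higher. Of 41 genes of amino acid and nucleotide metabolism 6 rose and 1 fell. haao-1, which degrades 3-hydroxyanthranilic acid in the kynurenine pathway, was at 5.05, 6.47 and 5.796 in N2 and 15.3, 15.9 and 15.2 in CA-CRTC-1 (1.35 ± 0.10). tyms-1, the thymidylate synthase gene (0.86 ± 0.08), and the uridine phosphorylase gene upp-1 (0.79 ± 0.09) rose, whereas umps-1, the UMP synthase gene, fell from 302 CPM to 174 CPM (-0.80 ± 0.07).

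Detoxification families split as well. Among all genes tested the shares were 6.62% higher and 2.17% lower. Of 32 cytochrome P450 genes 5 rose and 4 fell (5 and 6 after median-ratio scaling or with edgeR). cyp-36A1 (1.44 ± 0.15) and cyp-33C8 (1.24 ± 0.13) rose, and cyp-35A5 (-1.04 ± 0.13) and cyp-33C5 (-1.02 ± 0.13) fell, so members of the same 33C subfamily went opposite ways. UDP-glucuronosyltransferases counted 3 rises and 3 falls of 37 (3 calls without CA-CRTC-1 replicate 3), with ugt-13 higher (2.25 ± 0.16) and ugt-64 lower (-0.98 ± 0.10). Glutathione transferases and antioxidant genes counted 2 rises and 2 falls of 55. trx-3, a thioredoxin gene expressed in the intestine, was at 95.4, 97.7 and 106 in N2 and 37.4, 34.6 and 38.1 in CA-CRTC-1, a difference of -1.43 ± 0.12 (limma, adjusted p = 7.02e-07). It was not called over CA-AAK-2 (-0.05 ± 0.12), where CA-AAK-2 animals already held 46.7 CPM. Heat shock and ER folding genes, a list that also holds the prion-like pqn and abu families, counted 9 rises and 4 falls of 121, against 7 and 8 after median-ratio scaling or with edgeR. Of the 13 genes 9 belonged to the pqn and abu families, with pqn-31 and pqn-94 highest and pqn-29 lowest (-1.09 ± 0.11). Of the chaperone genes hsp-70 rose most (2.42 ± 0.44; chosen after its values were seen). In the pharynx list of 19 genes 3 rose and 0 fell, with marg-1 highest (2.32 ± 0.15).

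**Figure D4:**
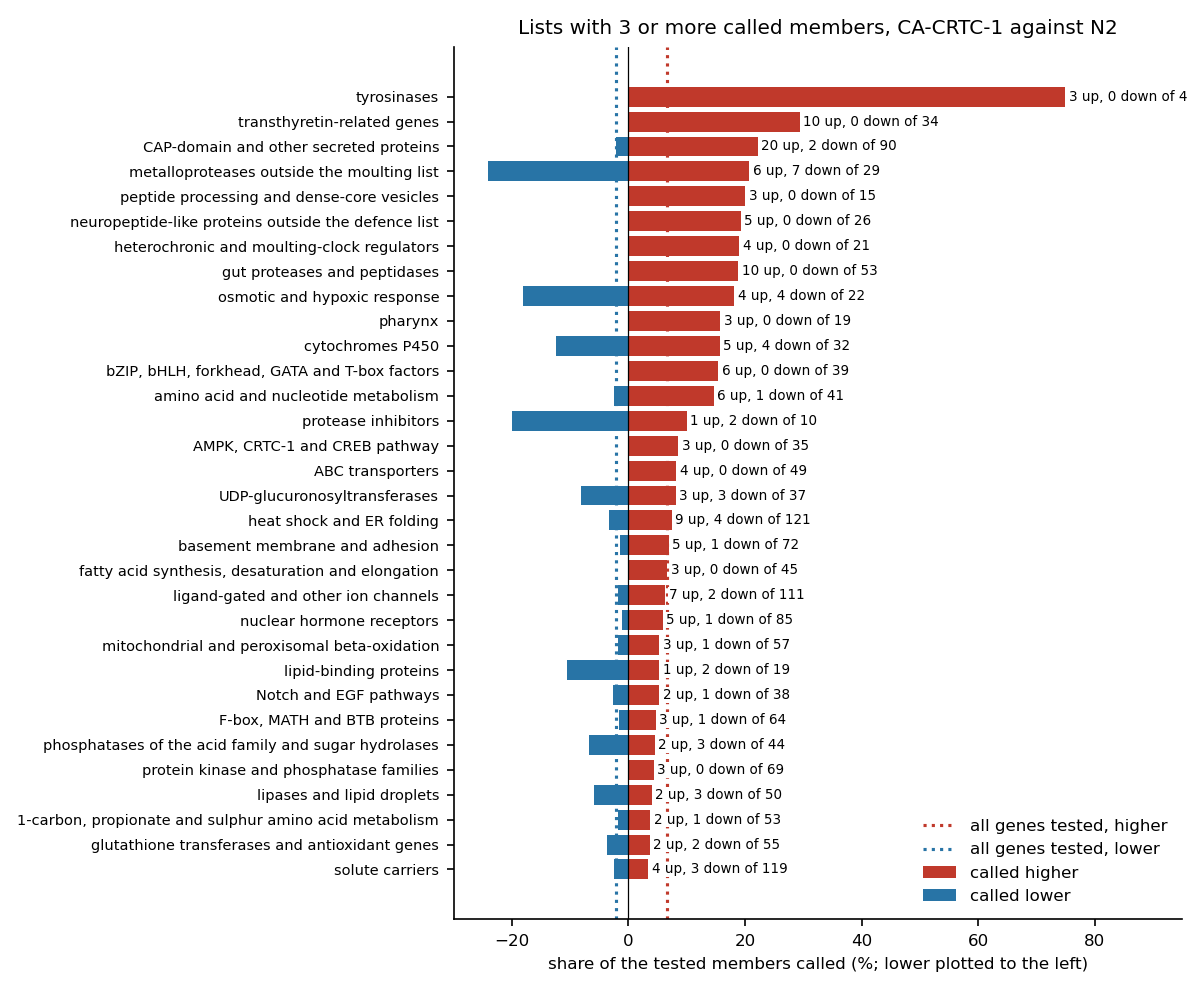
Share of the tested members of each list called higher (to the right) or lower (to the left) in CA-CRTC-1 against N2, for lists with 3 or more called members outside the 4 lists left aside; dotted lines mark the shares over all genes tested, 6.62% and 2.17%. Transthyretin-related genes (10 of 34) and gut proteases (10 of 53) lie to the right with no falls, whereas metalloproteases (6 and 7 of 29) extend both ways. After median-ratio scaling or with edgeR, these transthyretin-related and gut protease lists had 1 fall each.

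In 12 of the 59 other lists, with 584 tested genes, limma called 0, against 8.79% of all genes tested; several of these lists are small, and the insulin-like peptides have 4 tested genes and monoamine signalling 8; 87 of these genes had an unadjusted p under 0.05 and edgeR called 1. They are homeobox genes, insulin-like peptides, synaptic genes, monoamine signalling, cilia, oxidative phosphorylation, germline genes, histones, cytosolic ribosomal proteins, translation factors, the mitochondrial ribosome and the proteasome. Vitellogenins, the yolk proteins, counted 1 fall of 6, that of vit-3 (-1.47 ± 0.37), whose call was lost when any 1 of the 6 libraries was left out; members of this family share reads. Among the most abundant called genes the uncharacterised ZK180.5 fell from 1837 CPM to 983 CPM (-0.90 ± 0.11) and E01G4.6 rose from 775 CPM to 1575 CPM (1.02 ± 0.19). suro-1 was the most abundant fall among the 20 largest that the rule names, at 424, 394 and 395 in N2 and 172, 205 and 182 in CA-CRTC-1 (-1.12 ± 0.07).

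Marker genes of tissues moved in some tissues. None of the listed markers of body-wall muscle (5), intestine (6), germ line (5), sperm (5) or adult intestine (3) was called, and their summed levels overlapped between the groups. In body-wall muscle, for example, the sum was 9250 to 10220 CPM in N2 and 9211 to 10397 CPM in CA-CRTC-1. Of 6 hypodermal markers, which summed to 1129 to 1222 CPM in N2 and 1189 to 1388 CPM in CA-CRTC-1, 3 rose and 0 fell. Of 4 oocyte markers 3 rose and 0 fell, though rme-2 (0.59) only just passed the fold threshold. The oogenesis list of 44 tested genes had 9 rises and 0 falls. It had 3 to 7 calls when 1 N2 or CA-CRTC-1 library was left out, 5 after median-ratio scaling and 4 with edgeR. The oocyte sum was 177 to 206 CPM in N2 and 284 to 319 CPM in CA-CRTC-1. The 5 pharyngeal markers, of which 1 rose, summed to 537 to 609 and 688 to 723 CPM. The part of tissue content or of timing within L4 in the differences was not tested. The 3 embryo markers had no row in the tables analysed here.

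Called genes were spread over all chromosomes. By the WBcel235 annotation, X (10.0%) and V (9.11%) held the most rises per gene tested, and I (4.14%) and III (4.35%) the fewest. The falls ranged from 1.26% on I to 3.26% on X.

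praf-3 fell far more than any other gene tested. It encodes a protein of the prenylated Rab acceptor family, lies on chromosome IV at 8379983 to 8381947 in WBcel235, on the forward strand, and was at 76.5, 80.3 and 82.8 in N2 and 1.55, 1.49 and 1.46 in CA-CRTC-1. The difference was -5.33 ± 0.11 (limma, adjusted p = 2.22e-13). CA-AAK-2 held 84.8 CPM and the double strain 0.908 CPM, a difference of -5.92 ± 0.11. Nearby, D2096.6, which lies within aagr-1 on the opposite strand, fell against N2 (-0.84 ± 0.09) and was not called over CA-AAK-2 (0.18 ± 0.09). D2096.11 fell in both contrasts (-1.12 ± 0.14 and -0.75 ± 0.14). timm-17B.2, a mitochondrial import gene homologue that lies below the level filter, was at 7.16, 6.96 and 6.69 in N2 and 0.448, 0.799 and 0.685 in CA-CRTC-1; with no filter on low values it was called lower (-2.71 ± 0.14), and it stood at 5.94 CPM and 2.44 CPM in the CA-AAK-2 and double strains. nap-1 differed by -0.52 and was not called, though it was with edgeR (-0.62) and after rescaling (-0.60). D2096.7, the gene beyond nap-1, differed by -0.10 and was not called. The library kit keeps no strand, and praf-3 overlaps D2096.9.

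The window of chromosome IV from 8000001 to 8500000 held 9 falls among 73 genes tested, or 12.3%, against a median of 1.99% over the 194 windows of 500000 bases with at least 20 genes. One window had a higher share, V from 3500001 to 4000000, with 6 falls and 6 rises among 31 genes (19.4% each). Another 3 genes on IV were low in both strains with CA-CRTC-1; they carry no gene symbol and were chosen after their values were seen. F17E9.5 (8345818 to 8346546) lies in that window, F42A9.6 (8609234 to 8611627) beyond its edge and C08F8.6 (11162752 to 11164931) farther away. C08F8.6 was at 45.3, 39.5 and 35.8 in N2 and 11.1, 10.3 and 8.31 in CA-CRTC-1 (-1.97 ± 0.12, then -2.25 ± 0.12 over CA-AAK-2). F42A9.6 (-1.67 ± 0.12, then -2.13 ± 0.12) and F17E9.5 (-1.33 ± 0.10, then -1.14 ± 0.10) behaved alike in direction.

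At the left end of chromosome II the outermost genes 2L52.1 and osta-1 were low in CA-CRTC-1 and not in the double strain. 2L52.1, the outermost gene with a position there (1848 to 5514 in WBcel235), had 856 reads over the 3 N2 libraries and 0 over the 3 CA-CRTC-1 libraries. Set against a floor of 3 reads over the group, it was at least 269-fold lower, and the CA-AAK-2 and double strains held 5.84 CPM and 5.27 CPM. The next gene, osta-1, was at 8.02, 6.76 and 6.78 in N2 and 0.777, 1.25 and 1.49 in CA-CRTC-1. The following genes lay higher, with best-4 at 0.5695 CPM and 3.01 CPM, best-3 at 3.96 CPM and 14.6 CPM (1.75 ± 0.17) and gmeb-1 at 11.9 CPM and 18.2 CPM (0.61 ± 0.12). best-3 and best-4 are bestrophin channel genes, and osta-1 and best-4 overlap on opposite strands. From sqt-2 inwards the next 3 genes were not called. best-3 and gmeb-1 were not called in the double strain against CA-AAK-2. Both of these strains lay above the N2 means for best-3 (7.23 CPM in CA-AAK-2 and 6.78 CPM in the double strain) and best-4 (0.78 CPM and 1.29 CPM). Apart from 2L52.1 these genes were chosen after their values were seen.

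**Figure D5:**
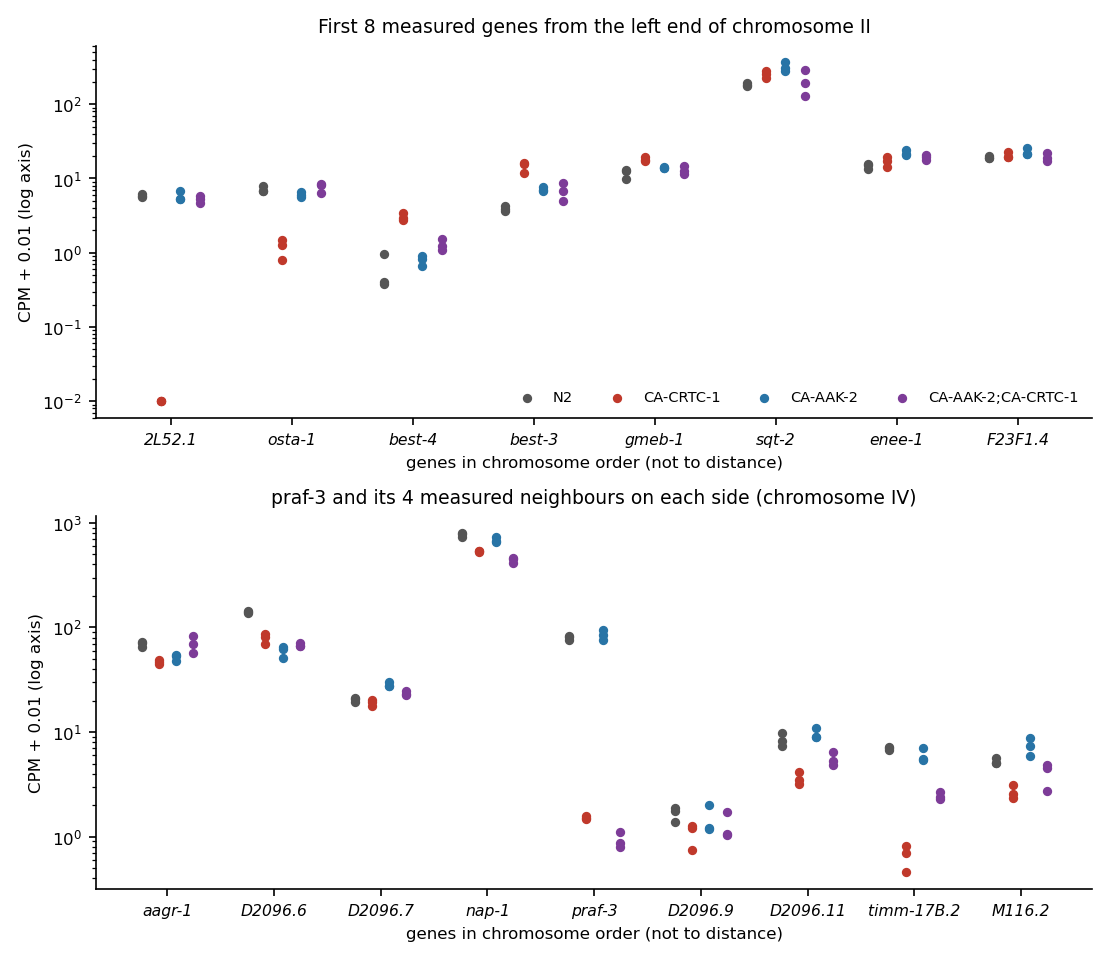
Level in every library (CPM plus 0.01, log axis) of the first 8 measured genes of chromosome II from its left end and of praf-3 with 4 measured neighbours on each side, in chromosome order. At the left end only the CA-CRTC-1 libraries are at 0 for 2L52.1, whereas praf-3 is low in CA-CRTC-1 and in the double strain.

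rol-6, a cuticle collagen gene whose mutant form is a common marker for making transgenic worms, was at 171, 185 and 168 in N2 and 426, 408 and 395 in CA-CRTC-1 (1.23 ± 0.14). It was also above N2 in CA-AAK-2, at 346, 321 and 344. The double strain held 602, 440 and 774 (0.81 ± 0.14 over CA-AAK-2). T01B7.11, annotated on the opposite strand 207 bases from rol-6, had 0 reads in every N2 and CA-AAK-2 library, 60 to 83 reads in the CA-CRTC-1 libraries and 89 to 195 in the double strain. Against the floor of 3 reads over the N2 libraries it was at least 75.3-fold higher in CA-CRTC-1. The flanking gene trcs-2 differed by 0.08 and was not called, and idpb-4 on the other side fell (-0.81 ± 0.18). The reads do not show which copy of a gene they came from, and the labels used here name no marker gene.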

How the data were processed

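The authors deposited CPM values of 12 samples, scaled with edgeR. Scaling these values to equal totals moved the median difference of all genes by -0.01, whereas edgeR on the recovered reads moved it by -0.09. Whether the deposited values carry a correction for composition is therefore uncertain. Per the submitters' processing notes, reads were trimmed with cutadapt, aligned with TopHat2 2.0.8 and counted with HTSeq. Both ce6 and WS238 are named, so the build is uncertain; positions are those of WBcel235 and only place genes. Poly-A RNA (4 micrograms, integrity number 10) was sequenced in 50 cycles from both ends, without strand. The steps of the CPM values gave whole reads (100% within 0.02 reads), 30887631 to 48842023 per N2 and 37228043 to 48778865 per CA-CRTC-1 library; 1 read equals 0.0178 to 0.0285 CPM.

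Tests used limma 3.58.1 (R 4.3.3) with log2(CPM + 0.5) as input, which understates changes of low genes. The fit had a trended prior, all 12 samples, genes averaging 1 CPM or more in the series, and Benjamini-Hochberg adjustment over the 10509 genes of at least 5 CPM over the 6. It was tested on simulated data. Alternatives were other pseudocounts, filters, scalings, thresholds and priors, a fit of the compared groups alone, and a replicate term. Further ones were omission of each N2 or CA-CRTC-1 library in turn, and edgeR 4.0.16 applied to the whole reads. No CA-AAK-2 or double-strain library was left out. The series text calls the 3 samples per strain biological replicates without naming separate cultures, so p-values measure the spread between these samples.

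Members and gene lists were chosen with earlier results of these data known. Named genes follow a rule: crtc-1, aak-2, crh-1, rol-6 and praf-3, the 20 largest rises and falls with a symbol outside the 4 lists left aside, up to 4 called members of lists with 3 or more calls, the 10 most abundant called genes, genes near 0 reads in 1 strain, and neighbours of praf-3.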

Additional observations from a re-analysis of the deposited data

Results flagged for a closer look

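For the genes below, the CA-CRTC-1 difference was not the same in the 2 pairs of strains. Because crtc-1 was at 189 CPM in CA-CRTC-1 and 362 CPM in the double strain, CA-AAK-2, crtc-1 level and strain cannot be told apart. Each value is the interaction on the log2 scale, the difference in the double strain over CA-AAK-2 minus that of CA-CRTC-1 over N2, and each was called by limma at the same thresholds. Negative values mean a lower difference with CA-AAK-2 than without it; for cysl-2, acs-3, nhr-234 and phy-2 a called rise became a called fall.

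Among regulators the interaction was -3.45 for atf-8, -1.54 for atf-2, -1.46 for myrf-1 and -1.90 for nhr-234, and crtc-1 itself gave 0.97. In the extracellular matrix it was -2.58 for cdh-7, -2.23 for cdh-10, -2.58 for cdh-12, -1.27 for lam-3, -2.57 for dao-2 and -3.52 for mltn-1. The lipocalin-related genes gave -3.32 (lpr-3), -3.12 (lpr-5) and -3.14 (lpr-6), beside -2.16 for let-4. Metalloprotease genes gave -2.97 (zmp-2), 0.97 (zmp-6) and 0.85 (adt-1). Gut proteases gave -1.49 (cpr-4), -0.90 (cpr-5) and -0.77 (cpr-9), and the protease inhibitor gene cpi-1 gave 1.80.

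Among tyrosinase and transthyretin-related genes the values were -0.97 (tyr-1), 1.02 (tyr-2), 0.85 (tyr-4) and -1.46 (ttr-26). In the osmotic group they were -2.56 for osm-8, -2.28 for osr-1, 0.96 for hmit-1.1, 0.59 for hmit-1.3, 1.07 for ptr-23, 0.96 for osm-7, -2.06 for cysl-2 and -1.71 for phy-2. Channel and transporter genes gave 1.09 (lgc-21), -1.86 (lgc-22), -0.93 (best-14), 1.04 (oat-1) and 0.66 (pept-3). Peptide-processing genes gave -0.81 (cpd-1) and -0.61 (pamn-1).

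In metabolism and detoxification the values were -0.84 for haao-1, -0.59 for tyms-1, -2.16 for acs-3, 3.22 for far-3, 0.68 for pho-8, 1.46 for pho-9, 0.89 for cyp-33C5 and 1.38 for trx-3. Among the remaining genes they were 0.81 for pqn-29, -1.43 for E01G4.6 and 1.02 for D2096.6. The genes were chosen by the difference against N2, which favours interactions towards a smaller difference. Double-strain libraries spread widely for several of them, with replicate 3 highest, among them atf-8, lpr-3, osm-8 and E01G4.6.

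T01B7.11 lies below the level filter and is not among the genes tested. With no filter on low values it was called higher (2.07 ± 0.18). Its lowest CA-CRTC-1 library held 60 reads, against 0 in every N2 library.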

How the results depend on the processing

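Of 173 named or rule-given genes, 168 were called and 142 kept direction and side of the threshold under every alternative; 0 reversed. A filter of 1 CPM gave 1436 called genes (1169 higher, 318 called list members), and no filter gave 1644, 1366 and 367. A looser rule (adjusted p of 0.05, any fold) gave 2799 called genes, 1999 higher and 800 lower, with 724 list members and 114 falls called over CA-AAK-2 too. edgeR gave 354 lower. Leaving out 1 N2 or CA-CRTC-1 library in turn gave 800 to 869 called genes, 593 to 659 higher and 194 to 237 lower. It gave 180 to 213 list members, 315 to 344 called interactions and 153 to 163 named genes called. Rises called over CA-AAK-2 too numbered 280 to 281, and falls 59 to 61. The contrast over CA-AAK-2 kept all its libraries in these fits, so these ranges do not test how far the recurrence depends on single libraries.

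Same-numbered N2 and CA-CRTC-1 libraries deviated together by r = 0.179, -0.00406 and 0.378, and N2 replicate 1 correlated best with CA-CRTC-1 replicate 2 (0.335), so the numbers were not taken to pair samples. With replicate number as a block 948 genes were called, 713 of them higher. 1 read is worth up to 0.0285 CPM, and depth was not tested as a limit.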
